A study of Mus musculus with 2 samples.

Results

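The endothelial cell markers examined here are 10 genes taken by name: Pecam1, Cdh5, Kdr, Flt1, Tek, Tie1, Emcn, Egfl7, Eng and Esam. All 10 were found, by their symbols, among the 27179 genes listed for each library. The RNA came from iBAT, the interscapular depot of brown fat, of untreated C57BL/6N mice that were 20 days old and are described as male. One group of animals was wild-type and the other carried the Ucp1 knockout (Δ/Δ), named Ucp1-KO here and disrupts the gene of the mitochondrial uncoupling protein by which brown fat makes heat. Tissue of 3 animals per genotype was pooled into 1 library, so there is no replicate, no p-value and no measure of the spread between animals.

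Endothelial cells form the inner lining of blood vessels. They seal the vessel wall through junction proteins, read growth signals of the VEGF and angiopoietin families through receptor tyrosine kinases, and carry a sugar-rich coat towards the blood. Brown fat is among the most densely vascularised tissues, since its capillaries deliver oxygen and fatty acids to the burning adipocytes and carry off the heat.

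Each value below is a count of reads per gene, and a normalised count is that count divided by a size factor for its library. The log2 ratio compares Ucp1-KO with wild-type on normalised counts, with 0.5 added to both, so that a negative value is a lower level in Ucp1-KO. Intervals are 95% intervals of counting error, computed on read pairs, and cover nothing else. The libraries held 52950913 (wild-type) and 53216727 (Ucp1-KO) counts. In bulk tissue, fewer endothelial cells and less RNA per endothelial cell cannot be told apart.

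The labels were checked before the markers were compared. Ucp1 stood at 12.7% of the wild-type level in the library labelled Ucp1-KO (12.5% to 12.9%). Although the animals are described as male, 4 genes of the Y chromosome (Ddx3y, Eif2s3y, Kdm5d, Uty) had no count at all in wild-type against 491 to 3446 in Ucp1-KO, while Xist, the RNA of the inactive X chromosome, had 32380 and 16478 counts. The wild-type counts thus go against that description, and Ucp1-KO held both Y-linked and Xist counts. The sex of the animals in each pool was not tested. Skeletal muscle transcripts also separated the libraries: the sum of 15 markers was 0.630% of counts in wild-type against 0.0772% in Ucp1-KO. Subunit transcripts of mitochondrial DNA took 21.4% and 30.7% of counts, and mitochondrial ribosomal RNA 1.01% and 6.01%. With 1 library each, the genotype cannot be told apart from these sex-linked, muscle and mitochondrial differences, and their part in the results below was not tested. The adipocyte markers Adipoq (29355 and 42763 counts) and Cidea (89838 and 102812 counts) were abundant in both libraries.

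All 10 endothelial markers were lower in Ucp1-KO. Their log2 ratios ran from -1.39 for Emcn to -0.38 for Cdh5, with a median of -0.81, a level 1.75-fold lower. Over the 15212 genes examined, those whose mean normalised count reached 10, the median was -0.0016 and 50.1% had a negative log2 ratio. The interval of each of the 10 markers lay wholly below 0, as it did for 30.5% of all genes examined, and wholly above 0 for no marker and 31.5% of genes. A difference of at least 2-fold was reached by 1 marker of 10, Emcn, against 9.55% of all genes, so the share past 2-fold was close to that of genes in general, and no marker was 2-fold higher, against 7.42% of genes. A log2 ratio of -0.5 or less was found for 7 markers and for 20.8% of all genes. Scaling by total counts, which moved the median of all genes to -0.31, put 7 of the 10 markers past 2-fold, against 15.2% of genes lower and 4.8% higher.

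The markers were abundant genes. Their mean normalised counts ran from 2657 to 23044. In that range lay 2846 genes, with a median log2 ratio of 0.088, of which 40.5% were lower in Ucp1-KO. Among these, 3.16% were at least 2-fold lower and 2.46% higher, 10% had a log2 ratio of -0.5 or less, and 33.1% and 50.5% had intervals wholly below and above 0. The middle 90% of them ran from -0.81 to 0.78, narrower than the range of all genes, and Emcn, Egfl7, Flt1, Kdr and Tek lay below it. Together the markers made up 0.281% of all wild-type counts (exact binomial interval 0.279% to 0.283%), against 0.140% in Ucp1-KO (0.138% to 0.141%). Their normalised sum in Ucp1-KO was 61.5% of the wild-type sum, a log2 ratio of -0.70 (-0.72 to -0.68).

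**Figure D1:**
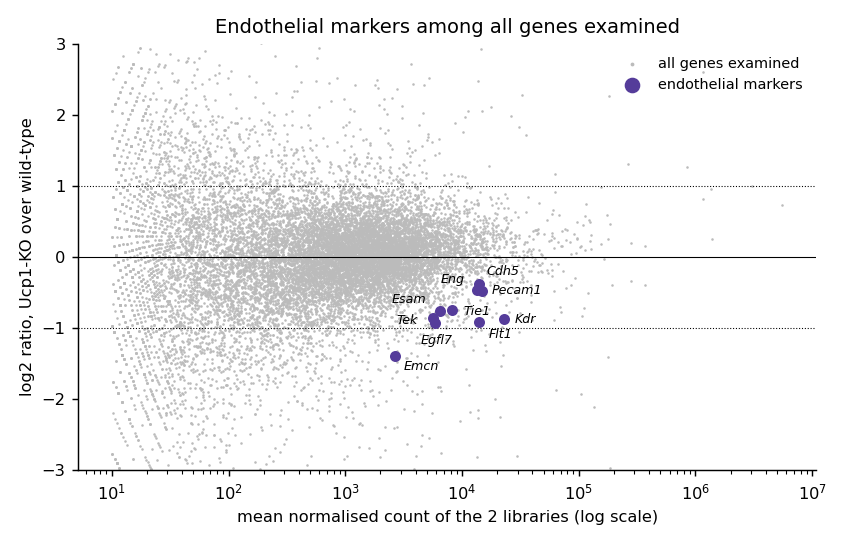
The log2 ratio (vertical axis, Ucp1-KO over wild-type) is plotted against mean normalised counts of the 2 libraries (horizontal axis, log scale) for all 15212 genes examined in grey and the 10 endothelial markers in purple. Dotted lines mark 2-fold, 311 genes lie beyond the limits of 3 on the vertical axis, and every marker lies below 0, with only Emcn below the lower dotted line.

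The first markers hold endothelial cells to each other. Pecam1 (chromosome 11, 106543689 to 106641454 of GRCm39, minus strand) encodes CD31, an adhesion molecule of the cell contacts that platelets and leukocytes carry too. It had 19255 wild-type and 11272 Ucp1-KO counts, or 17356 and 12506 normalised counts, a log2 ratio of -0.47 (-0.52 to -0.43). Cdh5 (chromosome 8, 104828231 to 104871143, plus strand) encodes VE-cadherin, which builds the adherens junction of vessels. With 17643 and 11008 counts, or 15903 and 12213 normalised, it kept 76.8% of the wild-type level (74.2% to 79.4%), the most of any of the 10 markers, at a log2 ratio of -0.38 (-0.43 to -0.33). Esam (chromosome 9, 37439344 to 37449615, plus strand) encodes an adhesion molecule of endothelial tight junctions that platelets carry too. Its 9026 and 4352 counts were 8136 and 4828 normalised counts and gave a log2 ratio of -0.75 (-0.83 to -0.68). The junction genes therefore differed among themselves, since the interval of Esam lay apart from those of Pecam1 and Cdh5.

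The receptor tyrosine kinases came next. Kdr (chromosome 5, 76093487 to 76139884, minus strand), the main signalling receptor for VEGF-A, was the most abundant marker by counts in both libraries. It had 33059 and 14683 counts, or 29798 and 16290 normalised, a log2 ratio of -0.87 (-0.91 to -0.83). Flt1 (chromosome 5, 147498414 to 147662826, minus strand), which binds VEGF-A tightly and in its soluble form withholds it from Kdr, had 20424 and 8844 counts, or 18409 and 9812 normalised. Its log2 ratio of -0.91 (-0.96 to -0.86) could not be separated from that of Kdr by counting error. The pair of VEGF receptors thus stood at 54.7% and 53.3% of their wild-type levels.

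Tek (chromosome 4, 94627291 to 94763224, plus strand) encodes TIE2, the receptor for angiopoietins. It had 8042 and 3596 counts, or 7249 and 3990 normalised, a log2 ratio of -0.86 (-0.94 to -0.78). Tie1 (chromosome 4, 118328385 to 118347261, minus strand), its relative that acts as a partner of TIE2, had 11464 and 5565 counts, or 10333 and 6174 normalised, a log2 ratio of -0.74 (-0.81 to -0.68). Their intervals overlapped each other, and that of Tek overlapped those of Kdr and Flt1, whereas the interval of Tie1 lay apart from those of Kdr and Flt1. The 4 kinases ran from -0.91 to -0.74.

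Eng (chromosome 2, 32535543 to 32574661, plus strand) encodes endoglin, a co-receptor for ligands of the TGF-beta and BMP family that activated macrophages can carry as well. Its 17264 and 10152 counts were 15561 and 11263 normalised counts, a log2 ratio of -0.47 (-0.52 to -0.42). That was the value of Pecam1 within counting error, and the interval also met that of Cdh5. Pecam1, Cdh5 and Eng were the 3 markers nearest to 0 and kept 72.1% to 76.8% of the wild-type level. None of their intervals met an interval of the other 7.

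Emcn (chromosome 3, 137046794 to 137138999, plus strand) encodes endomucin, a sialomucin on the blood-facing side of capillary and venous endothelium. It was the least counted marker, with 4270 wild-type counts (4091 to 4455) and 1320 Ucp1-KO counts (1221 to 1425), or 3849 and 1464 normalised. Its log2 ratio of -1.39 (-1.52 to -1.27), 2.63-fold lower, lay apart from those of all other markers, and 5.92% of the genes examined had a lower one. Egfl7 (chromosome 2, 26468286 to 26486789, plus strand) encodes a matrix protein that endothelial cells secrete. It had 8510 and 3647 counts, or 7671 and 4046 normalised, a log2 ratio of -0.92. It kept 52.7% of the wild-type level (49.9% to 55.7%), close to the VEGF receptors.

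**Figure D2:**
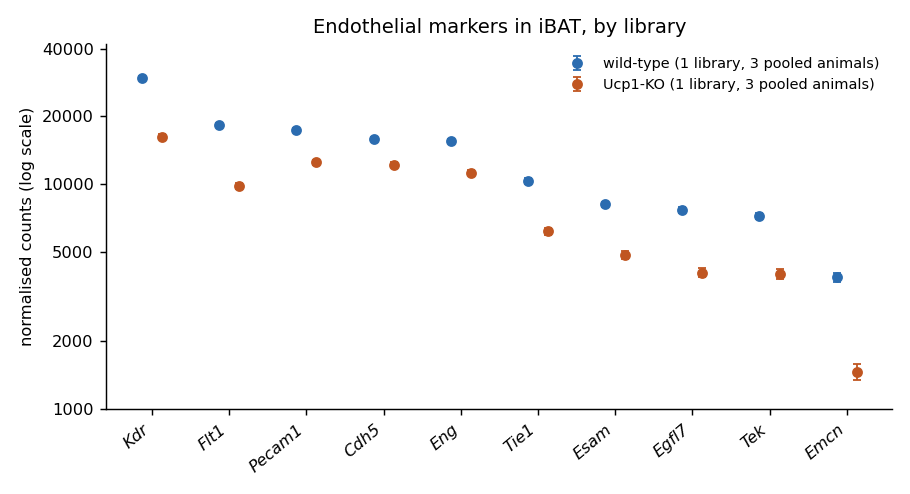
Normalised counts (log scale) of each endothelial marker in the wild-type library (blue) and the Ucp1-KO library (orange), ordered by the wild-type level. Error bars are 95% Poisson intervals on read pairs, and each marker has its wild-type point above its Ucp1-KO point, from 29798 and 16290 for Kdr to 3849 and 1464 for Emcn.

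Of the 45 pairs of markers, 33 had log2 ratios with intervals apart, so the markers did not differ by 1 common factor between these libraries. In order they formed Emcn alone, then Egfl7, Flt1, Kdr and Tek, then Esam and Tie1, and then Pecam1, Eng and Cdh5, with the interval of Tek also meeting those of Esam and Tie1. The span from Emcn to Cdh5 was 1.01 on the log2 scale. All 10 log2 ratios lay inside the middle 90% of the genes examined, which ran from -1.54 to 1.31.

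**Figure D3:**
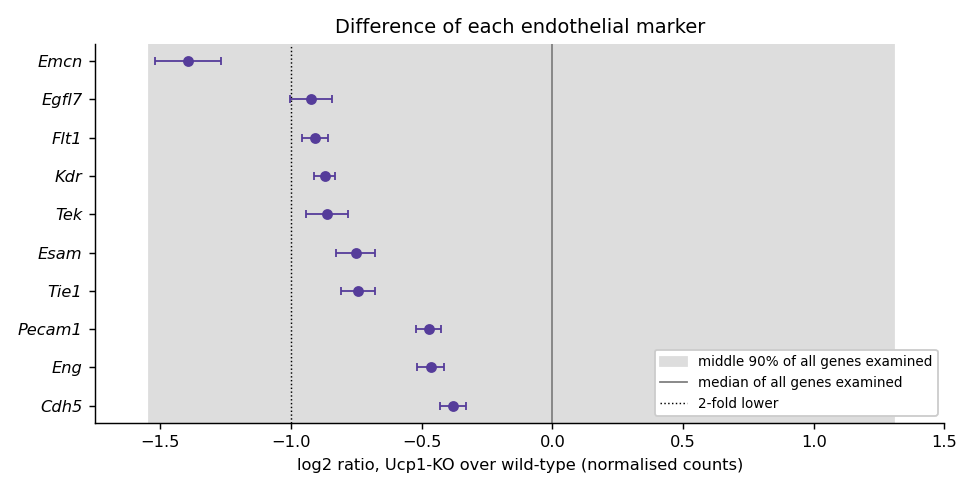
The log2 ratio (horizontal axis, Ucp1-KO over wild-type) of each endothelial marker with its 95% counting interval. The grey band is the middle 90% of the 15212 genes examined, from -1.54 to 1.31, and the markers lie to the left of the grey median line, with Emcn alone beyond the dotted 2-fold line.

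Shares within the marker counts need no scaling between libraries. They come from the same counts and restate the log2 ratios relative to the marker sum, so they are not separate evidence. Kdr made up 22.2% of the counts of the 10 markers in wild-type (21.9% to 22.5%), against 19.7% in Ucp1-KO (19.3% to 20.1%). Emcn went from 2.87% to 1.77%, and Flt1 from 13.7% to 11.9%. In the other direction, Pecam1 made up 12.9% and 15.1%, Cdh5 11.8% and 14.8%, and Eng 11.6% and 13.6%. The shares of Tie1 (7.70% and 7.48%) and Esam (6.06% and 5.85%) had overlapping intervals.

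**Figure D4:**
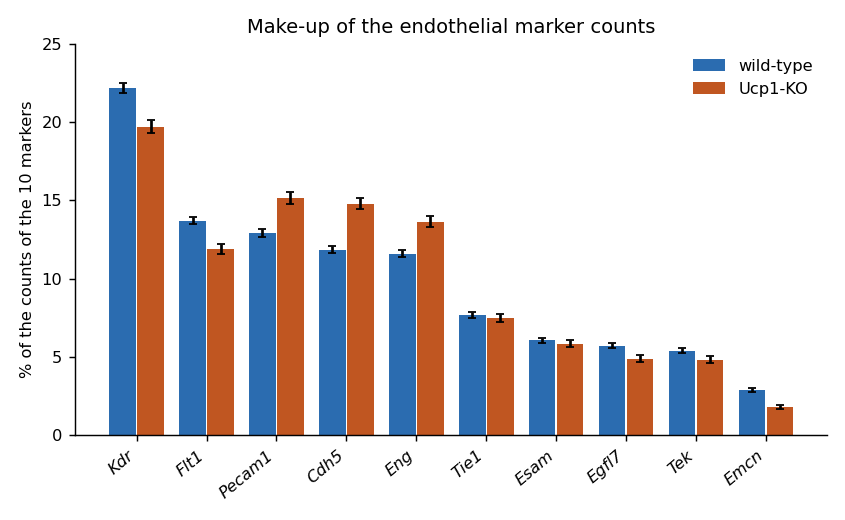
Percent of the summed counts of the 10 endothelial markers that each marker held in wild-type (blue bars) and Ucp1-KO (orange bars), with exact 95% binomial intervals on read pairs. The bars of Pecam1, Cdh5 and Eng are higher in Ucp1-KO, those of Kdr, Flt1, Tek, Egfl7 and Emcn are lower, and those of Tie1 and Esam have overlapping intervals.

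Levels were compared between genes per kilobase of the canonical transcript in GENCODE mouse release 39. In wild-type the order by normalised counts per kilobase was Egfl7 (5257), Kdr (5030), Pecam1 (4719), Eng (4460), Esam (4293), Cdh5 (3955), Flt1 (2670), Tie1 (2524), Emcn (1468) and Tek (1466). Counting error did not separate Egfl7 from Kdr, Eng from Esam or Emcn from Tek. In Ucp1-KO the order began with Pecam1 (3400), Eng (3228) and Cdh5 (3037), went on with Egfl7 (2773), Kdr (2750), Esam (2548), Tie1 (1508) and Flt1 (1423), and ended with Tek (807) and Emcn (559). There Pecam1 and Eng, Egfl7 and Kdr, and Tie1 and Flt1 could not be separated. The order depended on the length used. With the merged length of all annotated exons, 2 markers in wild-type and 1 in Ucp1-KO kept their place, and Egfl7, with a canonical transcript of 1459 bases and 8003 bases of annotated exon, went from first to ninth place in wild-type.

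Reads of some markers could be shared with genes that overlap them, because the strand setting of the counting was not given in the sources used here. Egfl7 shares 1088 annotated exon bases with Agpat2 on the opposite strand, an enzyme of triglyceride synthesis, though none between the canonical transcripts. Agpat2 had 25648 and 13428 counts, more than Egfl7, and a log2 ratio of -0.63 (-0.68 to -0.59). Eng shares 860 exon bases with Fpgs on the opposite strand, 50 of them between canonical transcripts, and Fpgs had 319 and 330 counts. The precursor of the endothelial microRNA miR-126, listed as Mir126a, lies within Egfl7, and its 73 and 39 counts come from poly-A-enriched libraries, which do not capture the mature microRNA.

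Emcn had the lowest log2 ratio of the markers and the only one past 2-fold, and the 250 bases before the start of its canonical transcript are shown for that reason, at chr3:137046544-137046793 of GRCm39, on the plus strand. Capitals mark the core of the motif bound by ETS factors such as ERG and FLI1, GGAA or its reverse complement TTCC, overlaps included.
Emcn: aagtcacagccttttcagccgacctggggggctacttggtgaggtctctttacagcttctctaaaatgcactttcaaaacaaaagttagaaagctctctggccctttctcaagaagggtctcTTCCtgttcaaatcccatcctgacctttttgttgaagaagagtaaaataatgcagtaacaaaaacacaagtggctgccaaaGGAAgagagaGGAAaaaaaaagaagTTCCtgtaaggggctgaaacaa
The window held 4 copies of the core. All 10 markers had at least 2 copies in this window, with a median of 3, and 93.9% of 21757 protein-coding genes had at least 1, also with a median of 3. The longer form AGGAAG, on either strand, stood in 3 of the 10 windows and in 28.9% of all, and CCGGAA in 1 of 10 and in 12.4%. A TATAAA stood in the window of Flt1 alone among the markers and in 11.9% of all windows, while GATAAG was found in none of the 10 and in 6.38% of all. The 5 motifs, of which the longer ETS forms contain the core, were therefore about as frequent in the windows of the markers as elsewhere. The windows themselves differed, with a GC content of 42.4% before Emcn and 70.4% before Flt1 and a median of 57.4% against 53.2% for all genes.

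Further genes of blood vessels were described from lists, and some genes stand on more than 1 of them. Of 24 other genes expressed across endothelium, 21 were lower and 5 at least 2-fold lower in Ucp1-KO, against 50.1% and 9.55% of all genes, with a median log2 ratio of -0.51. Tspan7, a membrane tetraspanin, was at -1.11 (7749 and 2915 counts), Vwf, the von Willebrand factor of haemostasis, at -1.05 (1989 and 780 counts), and Podxl, a sialomucin like Emcn, at -1.05 (19853 and 7799 counts). The 3 genes of this list that were not lower, chosen after their values were seen, were Cldn5, the claudin of endothelial tight junctions, at 0.50 (0.38 to 0.63), and Ecscr (0.18) and Sox18 (0.09), whose intervals included 0. With total-count scaling Ecscr and Sox18 would lie below 0.

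Of 20 transcription factors of endothelial cells, 16 were lower, against 50.1% of all genes, with a median of -0.48. Mef2c, which muscle expresses as well, was at -1.57 (3170 and 867 counts), Erg at 50.1% of the wild-type level (2036 and 828 counts), just inside 2-fold, and Tcf15, a factor of capillaries that take up fatty acids, at -0.94 (767 and 325 counts). Mef2c was thus the only one of the 20 past 2-fold, in a list where 9.55% would be the share of all genes.

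Vessel types were compared next. All 14 arterial genes were lower, 4 of them at least 2-fold against 9.55% of all genes, with a median of -0.69. The 4 had few counts, at most 375 in a library. The Notch target Hey2 was at -2.25 (237 and 40 counts), the kinase Bmx at -2.14 (105 and 19 counts) and Stmn2 at -2.06 (187 and 36 counts). The 14 genes of capillaries and lipid transport had a median of -0.37 with 11 lower, against 50.1% of all genes. Lowest were Fabp5 at -1.31, Tcf15 at -0.94 and the water channel Aqp1 at -0.89. The summed counts of the 14 genes gave a log2 ratio of 0.03 instead. Most counts lay in Cd36 (0.25) and Fabp4 (0.15), which adipocytes also express. With total-count scaling this sum and both genes would lie below 0. The part of adipocytes and other cells in the higher and in the lower genes of this list was not tested. Gpihbp1, the capillary anchor of lipoprotein lipase, chosen after its value was seen, was at -0.69 (16443 and 8259 counts).

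Venous genes were uneven. Of 9 examined, 5 were lower and 4 higher, against 50.1% of all genes lower. Their median was -0.01, which became -0.22 without a filter or with a minimum mean of 50 and -0.32 with total counts. Their summed counts gave -0.45. Vwf was at -1.05, Ackr1, a chemokine-binding receptor of venules, at 1.06 from 70 and 119 counts, and Tmem252 at 2.71 from 24 and 130 counts. The 7 lymphatic genes examined had a median of -0.17, with 5 lower, against 50.1% of all genes, and few counts. That median became -0.59 without a filter and -0.48 with total counts. Mmrn1 was at -1.18 (174 and 62 counts), Reln at -0.59 (-1.27 to 0.06) and the lymphatic VEGF receptor Flt4 at -0.17 (-0.36 to 0.01). The lowest and highest examined, named after their values were seen, rested on few counts. Prox1 was at -3.02 (-6.29 to -1.14) from 44 and 4 counts, and Nts at 1.63 (-0.34 to 4.26) from 6 and 16 counts.

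Genes of growing and of activated endothelium were mixed. The 10 genes of angiogenic tip cells examined had a median of 0.02, or -0.29 with total-count scaling. Of these, 5 were higher and 5 lower, against 50.1% of all genes lower. Their intervals lay wholly above 0 for 3 and wholly below for 3, against 31.5% and 30.5% of all genes. The list thus stood close to genes in general. Plaur was at 1.43 (143 and 313 counts), Pgf at 1.28 (54 and 107 counts) and Nid2, a basement membrane protein, at -0.68 (1729 and 879 counts). Of 5 adhesion and chemokine genes of activated endothelium examined, 4 were higher and 1 lower, against 50.1% of all genes lower. Their median was 0.69, or 0.39 with total-count scaling. Intervals lay wholly above 0 for 3 and wholly below for 0, against 31.5% and 30.5% of all genes. Cx3cl1 was at 1.18 (201 and 371 counts), Icam1 at 0.69 (524 and 688 counts) and Vcam1 at 0.34 (463 and 477 counts), genes that other cells can express too. Also named after their values were seen were 2 selectins. Sele, the lower gene of this list, was at -0.97 (-2.17 to 0.11). Selp was at 1.07 (-0.06 to 2.31) from 22 and 38 counts.

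The ligands of the marker receptors were listed to set them beside Kdr, Flt1, Tek and Eng. The 9 of 12 ligands examined had a median log2 ratio of 0.07, which became -0.23 with total counts and -0.015 with the trend on mean expression removed. Vegfa, the ligand of Kdr and Flt1, had 29438 and 25163 counts and a log2 ratio of 0.07 (0.04 to 0.11), which would be below 0 with total-count scaling. Vegfb and Pgf, which bind Flt1, were at 0.38 (0.29 to 0.48) and 1.28 (0.59 to 2.01). Vegfc (-0.75) and Vegfd (-0.37) had at most 235 counts in a library. Angpt1, which activates TIE2, was at 0.43 (0.21 to 0.66), and Angpt2, which mostly opposes it, at 0.10 (-0.19 to 0.40), also below 0 with total counts. Tgfb1 was at -0.07 (-0.24 to 0.10) and Tgfb3 at -0.36 (-0.63 to -0.10). Angpt4, Gdf2 and Bmp10 were listed at 0 in both libraries, which allows up to 6 counts each. In these libraries, the interval of Vegfa and those of Kdr and Flt1 lay apart, as did that of Angpt1 from that of Tek. Not every ligand lay apart. The interval of Tgfb1 lay apart from that of Eng, but that of Tgfb3 met it. The wide interval of Vegfc (-1.47 to -0.07) met those of Kdr and Flt1.

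Partners of the receptors and junction proteins took an intermediate place, with a median of -0.16 over 14 genes. Of these, 8 were lower and 6 higher, against 50.1% of all genes lower. Ptprb, the phosphatase that restrains TIE2 and VE-cadherin signalling, was at -0.84 (-0.89 to -0.80), beside Tek. Plxnd1 (-0.65), Acvrl1 (-0.58), the kinase that signals with endoglin, Nrp2 (-0.43) and Nrp1 (-0.15), co-receptors for VEGF, were lower. So were the catenins Ctnnb1 (-0.27) and Jup (-0.28), which link cadherins to the cytoskeleton in many cell types. Ctnnd1 (0.19), Tgfbr2 (0.24), Dab2 (0.43) and Cd109 (0.48) were higher, Flt4 (-0.17) and Bmpr2 (0.08) had intervals that included 0, and Sh2d2a, at 2.47, rested on 8 and 38 counts. With total-count scaling Ctnnd1, Tgfbr2 and Bmpr2 would lie below 0.

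Markers of the cells beside endothelium in the tissue were set against the 10 endothelial markers, whose sum was at 61.5% of wild-type. The 14 mural cell markers, of the pericytes and smooth muscle that wrap vessels, had a median of -0.69. Of these, 12 were lower, against 50.1% of all genes, and their sum was at 74.0% of wild-type. Higd1b was at -2.03 (692 and 137 counts) and Acta2 at -1.02 (4982 and 1989 counts), whereas Cnn1 was at 1.85 (230 and 677 counts). The other higher mural gene, named after its value was seen, was Mcam, at 0.49 (0.40 to 0.59, 3339 and 3822 counts). All 6 red blood cell transcripts were lower, between -0.65 for Hbb-bs and -0.46 for Slc4a1, with Alas2 at -0.55, and their sum was at 70.9%. The adipocyte markers had a median of 0.25, or -0.055 with total counts, and a sum at 136% of wild-type. Of the 13, 8 were higher and 5 lower, against 50.1% of all genes lower. Those at least 2-fold lower were Retn (-1.90), Lep (-1.26) and Adrb3 (-1.08), against 9.55% of all genes.

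Pecam1, Esam and Eng are not confined to endothelium, so blood cell markers were counted as well. The 16 leukocyte markers had 3637 counts together in wild-type and 3823 in Ucp1-KO and a median of 0.47, or 0.17 with total counts. Of these, 12 were higher, including S100a9 (1.66, 32 and 83 counts), Cd37 (1.51, 32 and 75 counts) and Cd68 (1.09, 233 and 403 counts). With total counts Laptm5, C1qa and Ms4a1 would lie below 0. Intervals wholly above 0 were found for 6, against 31.5% of all genes. The 4 lower, named after their values were seen, were Cd3g (-0.56), Adgre1 (-0.21), S100a8 (-0.18) and Csf1r (-0.007), all with intervals that included 0. The 7 of 10 platelet and megakaryocyte markers examined had a median of 0.60, or 0.29 with total counts, with 5 higher, among them Gp1ba (1.37), Itga2b (0.67) and Pf4 (0.60). The 2 lower, named after their values were seen, were Ppbp at -1.92 (-3.71 to -0.54, 48 and 10 counts) and Clec1b at -0.27 (-2.26 to 1.54). The list summed to 685 and 851 counts. The part of blood cells in the markers was not tested.

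Of the remaining lists, the 12 preadipocyte and fibroblast markers had a median of -0.21 with 10 lower, against 50.1% of all genes. Lowest were Dlk1 (-0.75), Ly6a (-0.68), which endothelium expresses too, and Lum (-0.49). The 15 skeletal muscle markers were all at least 2-fold lower, against 9.55% of all genes. Their median was -2.55, with Pvalb (-3.92), Mylpf (-3.63) and Acta1 (-3.39) lowest. The part of muscle in the endothelial difference was not tested. The 7 Schwann cell and nerve markers had a median of -0.51, with S100b at -0.64 and Cdh19 at 0.57. Of the mesothelial markers only Lrrn4 had enough counts, at -0.01 (140 and 113 counts).

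**Figure D5:**
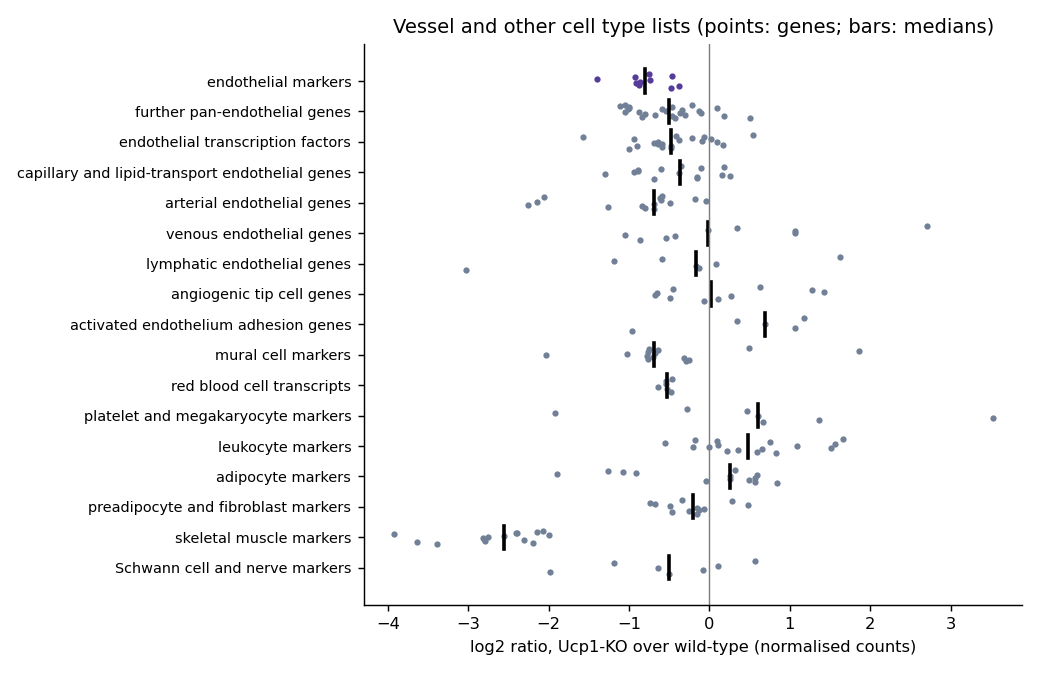
Each point is the log2 ratio (horizontal axis, Ucp1-KO over wild-type) of 1 examined gene, grouped by list, with the endothelial markers in purple and the median of each list as a black bar. The endothelial markers (-0.81), arterial genes (-0.69) and mural cell markers (-0.69) have medians below 0, muscle markers lie lowest (-2.55), and activated endothelium genes (0.69) and leukocyte markers (0.47) lie above 0.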

How the data were processed

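Total RNA of pooled iBAT was made into directional poly-A libraries, 1 per genotype. The authors deposited raw whole-number counts per gene from featureCounts. The submitters' processing notes name Trim Galore, HISAT2 and mm39. The annotation and the settings for strand and multi-mapped reads were not given in the sources used here. Among genes with 1 to 10 counts, 70.7% and 73.4% had even values, as when both mates of a pair are counted, so intervals used read pairs (counts divided by 2) and the floor of a 0 was 3 pairs, 6 counts.

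The size factors used to normalise counts were medians of ratios from DESeq2 1.42.0 in R 4.3.3, 1.11 for wild-type and 0.901 for Ucp1-KO. The log2 ratio used a pseudocount of 0.5. Genes were examined where the mean of their normalised counts reached 10. Counts have exact Poisson, ratios exact conditional binomial and shares exact binomial (Clopper-Pearson) 95% intervals (SciPy 1.17.1). Since reads carried no molecular identifiers, intervals and floors cover counting error only. With 1 library per genotype no test was run. The code was tested on simulated data.

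The markers and lists were chosen with earlier results of these data known. Named were all 10 markers, up to 3 genes with the largest difference per list at a mean of at least 50, and all ligands and co-receptors examined. Other genes are marked in the text as chosen with their values in view, or appear as overlapping genes, sums or label checks. Gene models and sequence were those of GENCODE release 39 on GRCm39, the build of the files, joined by symbol. Alternatives were other scalings (edgeR 4.0.16 for TMM), filters, pseudocounts, sizes and a lowess trend (statsmodels 0.14.6).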

Additional observations from a re-analysis of the deposited data

How the results depend on the processing

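No paired analysis was possible because there is a single library of either genotype, and leaving out a library was not possible either. Each of the 10 markers stayed below 0 under every alternative run. Total-count scaling moved the median of all genes by -0.31 and that of the markers to -1.11. Because other size factors shift all genes nearly alike, the markers stayed at -0.81 relative to all genes by construction. Their summed counts then gave -1.01, and 7 markers were at least 2-fold lower, against 15.2% of all genes. There were then 732 genes at least 2-fold higher and 2320 lower, so 24.0% of the genes past 2-fold were higher, against 43.7%. With total-count scaling the medians of the ligand list (-0.23), the adipocyte list (-0.055) and the tip cell list (-0.29) fell below 0. The tip cell list also did (-0.064) without a filter, and the ligand list (-0.015) with the trend on mean expression removed. The mesothelial list, with 1 gene examined, rose above 0 (0.095) with the trend removed. Removing that trend put the marker median at -0.89 and 2 markers past 2-fold. Summed counts in place of the median gave -0.70, and leaving out each marker in turn gave medians from -0.86 to -0.75. A size of 0.5 gave 7 markers and 2781 higher and 3161 lower genes, and a size of 1.5 gave 0 markers and 603 and 796 genes. An interval wholly beyond 2-fold left Emcn and 414 and 566 genes, a minimum mean of 50 left 617 and 811, and no filter gave 2187 and 2844. The stricter rules remove genes by construction. The length of all annotated exons, an alternative chosen after seeing the data, kept 2 markers in wild-type and 1 in Ucp1-KO in their place by level. The causes of the other shifts were not tested. Depth limits the lymphatic, platelet and mesothelial lists and the rarer ligands.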
